A study of Mus musculus with 629 samples.

Results

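Perivascular macrophages are resident macrophages that lie along the vessels of the brain, outside the tissue proper. As a class they are known for taking up material through scavenger receptors and mannose-binding lectins, breaking it down in lysosomes, and carrying iron, lipid and complement functions. They differ in origin and setting from microglia, the macrophages of the brain tissue itself, which depend on TGF-beta and express P2ry12, Tmem119 and Sall1.

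The cells described were those whose label gave the cell type Macrophages, 400 of 629 single brain cells, beside 215 microglia and 14 cells of a type named only 7. All came from adult C57BL/6 mice of the reporter line SM22-Cre;Rosa26-stop-tdTomato, in which Cre is driven by the smooth muscle promoter SM22, and were sorted by fluorescence into 384-well plates and sequenced with SMART-seq2, a full-length method without molecular identifiers. The mice were wild type (WT, 211 macrophages), heterozygous (Het, 70) or knockout (KO, 119) for Notch3, a receptor best known in vascular mural cells. The sort gate was not stated in the sources at hand, and no label named an animal, so each genotype stands as 1 sample and genotypes were not tested against each other.

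Counts were summed over pools, a pool being all macrophages, or all microglia, that share a genotype and a plate. Macrophages made up 8 pools: WT on plates 059s (47 cells), 529s (26) and 530s (138), Het on 056s (35), 524s (16) and 529s (19), and KO on 060s (98) and 524s (21). Each pool had a matching microglia pool of 15 to 47 cells. Levels are CPM, the pool's summed counts per 1000000 counts, with the ERCC spike-ins and Rn18s, the 18S ribosomal RNA, left out of the total. A level given without a pool is the median of the 8 pools, and its range is the lowest to the highest pool.

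Macrophages held a median of 197196 counts and 3401 genes per cell, against 246554 counts and 4719 genes in microglia. Pool medians ran from 109021 counts (Het on 529s) to 891311 (Het on 056s). The median share of Rn18s was highest in Het on 529s (55.7%) and lowest in Het on 056s (13.8%). Xist and Y-linked genes put the pools WT on 530s, Het on 529s and KO on 524s as female and the others as male. The WT pool of plate 529s stood apart in several genes given below, and the medians of pools were recomputed without it.

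The labelled type was described by its markers. The labels were probably made from these same counts. The marker values here, and the marker ratios over microglia further on, are thus no independent check of the type. All 400 cells held counts of at least 6 of the 8 markers Mrc1, Lyve1, Cd163, F13a1, Cbr2, Stab1, Dab2 and Ms4a7, and 369 held all 8. Their sum per cell had a median of 31913 CPM (5092 to 59173), while 10 microglia markers summed to a median of 1685 CPM (21.5 to 21118). In 398 cells the macrophage sum was the larger. Only 6 cells reached the lowest microglia-marker sum of any microglia cell, 9581 CPM, and 4 of those were in the WT pool of plate 059s. Markers of mural cells, endothelium, fibroblasts, neurons, ependyma, monocytes and lymphocytes were near 0 in all pools, none with a member at a level of 20 CPM. Red blood cell genes were also near 0 except in WT on 530s, where they held 0.0258% of counts and Hbb-bs, a hemoglobin chain, was at 139 CPM. The astrocyte and dendritic cell lists had 2 members each at that level. The oligodendrocyte list held 0.0691% of counts (0.0509 to 0.165), most of it Mbp, the myelin basic protein.

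**Figure D1:**
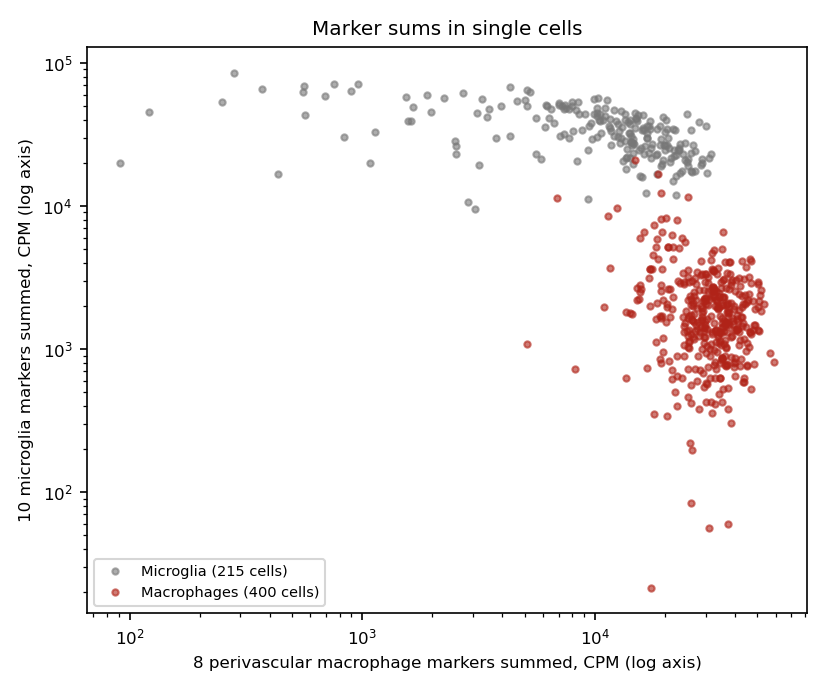
Each point is 1 cell, with the sum of 8 perivascular macrophage markers on the x axis and of 10 microglia markers on the y axis, both in CPM on log axes. The 400 macrophages lie at low microglia sums (median 1685 CPM), while the 215 microglia lie at high microglia sums and spread along the x axis from 90.9 to 31612 CPM.

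The separation was one-sided. Microglia carried the macrophage markers at a median sum of 13470 CPM (90.9 to 31612), and 171 of 215 microglia held counts of all 8. Whether this is expression in microglia or signal from other cells was not tested, and it bears on every ratio of the 2 cell types given below.

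The transcriptome was headed by Apoe, the lipid-carrying apolipoprotein, which alone took 7.17% of counts (5.16 to 8.95). Compared per kilobase of exon, so that long genes do not gain, Apoe stood at 33539 CPM per kb. It was followed by C1qb at 9592 and C1qa at 7033 CPM per kb, subunits of the first complement component, then Lyz2, the lysozyme of myeloid cells, at 6060, and Selenop, a secreted selenoprotein, at 4329. C1qc, the remaining C1q chain, stood at 2598 CPM per kb. The 30 genes of highest level per kb took 22.4% of counts (19.0 to 25.7), and 94 genes reached 1000 CPM.

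Digestive enzymes and uptake receptors were among the other genes of the 30. Legumain (Lgmn) stood at 2707 CPM per kb, cathepsin B (Ctsb) at 2251 and cathepsin D (Ctsd) at 1706, all proteases of the lysosome, with progranulin (Grn) at 2407 and the hexosaminidase Hexa at 1569. Csf1r, the receptor that macrophages need to survive, stood at 2442 CPM per kb. The mannose receptor Mrc1 (1192) and the carbonyl reductase Cbr2 (1636) were the perivascular markers among the 30. Fcgrt (1910), which recycles IgG, Pf4 (1293), a platelet-type chemokine, and Gas6 (1331), the ligand of Axl and Mertk, were further members. Part of the exons of Trf (63.5%) and Ctsd (34.4%) overlaps other genes, so that reads could be shared with them.

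**Figure D2:**
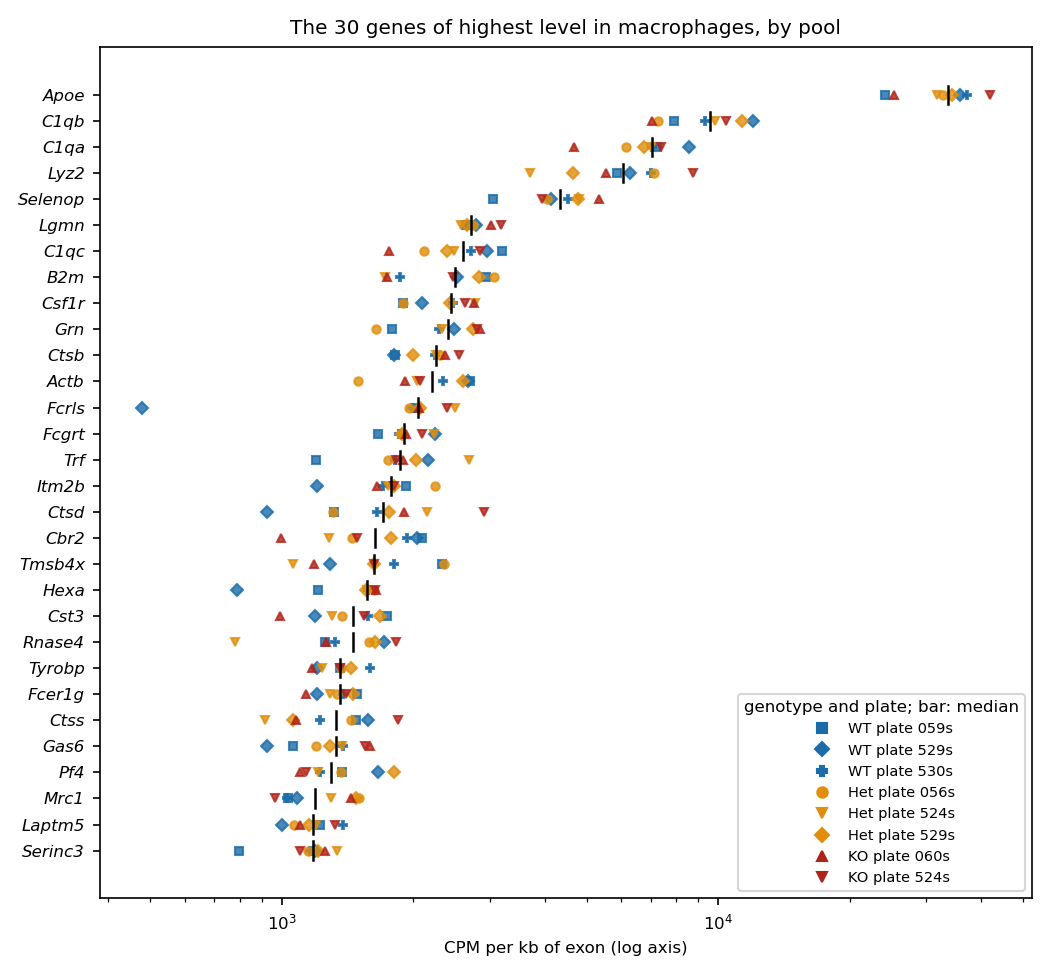
CPM per kb of exon on a log axis for the 30 genes of highest level, 1 point per pool, coloured by genotype and shaped by plate, with a bar at the median. Apoe lies at 33539 CPM per kb, and the WT pool of plate 529s lies far to the left for Fcrls.

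The 8 markers spanned an order of magnitude. Stab1, a scavenger receptor of endothelium and tissue macrophages, ranged from 6456 to 11378 CPM in the 8 pools, and Mrc1 from 6156 to 9593 CPM. Dab2, a clathrin adaptor for endocytosis, lay between 3132 and 5542 CPM, and F13a1, the clotting factor XIII subunit, between 3192 and 5810. Cbr2 lay between 1322 and 2778 CPM, and Ms4a7, a membrane protein of macrophages, between 313 and 827. Lyve1, the hyaluronan receptor, reached 8265 CPM in the WT pool of plate 529s and 1755 to 2655 in the other 7. Cd163, which takes up hemoglobin-haptoglobin, did the same, with 4100 CPM there and 951 to 2320 elsewhere. Together the markers took 3.28% of counts (2.80 to 3.77), and 3.26% without that pool.

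**Figure D3:**
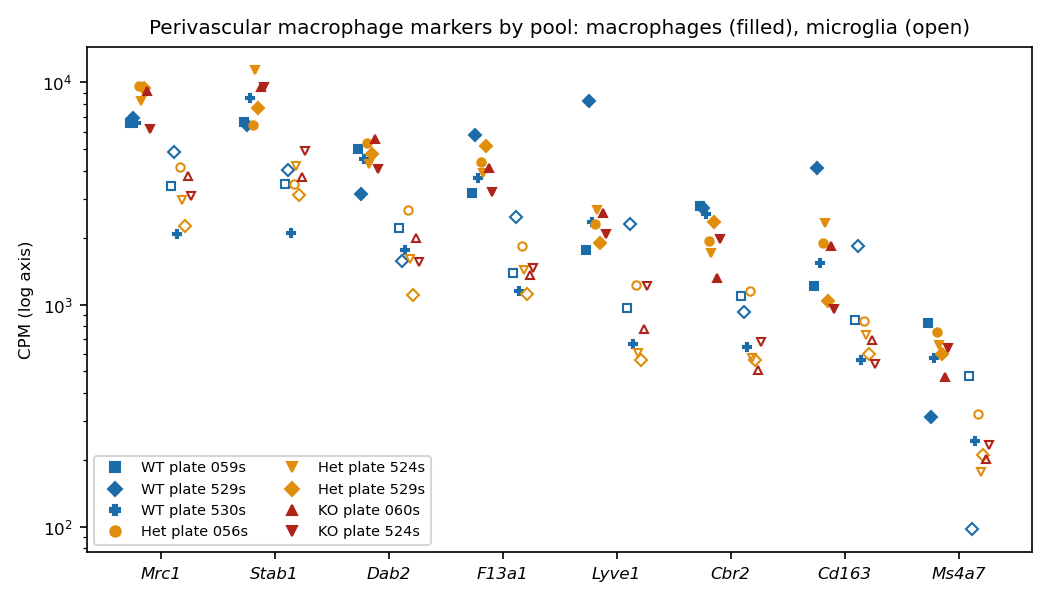
CPM on a log axis of the 8 perivascular macrophage markers, 1 symbol per pool, filled for macrophages and open for microglia. Macrophage pools lie above the microglia pools of the same genes by a median of about 1.13 to 1.74 log2 units, with Lyve1 and Cd163 highest in the WT pool of plate 529s.

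Among gene classes, lipid transport held 7.39% of counts (5.41 to 9.19), most of it Apoe. Cathepsins and legumain held 3.84% (3.28 to 4.52), scavenger and endocytic receptors 2.81% (2.39 to 3.22), complement 2.73% (2.03 to 3.26) and other lysosomal genes 2.73% (2.40 to 3.12). The scavenger list shares genes with the 8 markers, Dab2 among them, so its share is in part theirs. Fc receptors and their adaptors held 0.979%, and iron and heme genes 0.878%, among them the ferritin chains Fth1 (1893 CPM) and Ftl1 (1417 CPM) and the exporter Slc40a1 (373 to 1220 CPM). Growth factors were led by Gas6 and Igf1 (218 to 503 CPM). Ribosomal protein genes held 0.312%, over 77 genes, against 0.318% in microglia, and mitochondrial genes held 2.31%. The counting program is not given, so how reads of ribosomal protein genes were assigned is not known.

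MHC class II, which marks antigen-presenting macrophages of the brain borders, was close to absent in the cells labelled Macrophages. The 8 genes of the list held 0.0163% of counts (0.00836 to 0.0421), against 0.0309% in microglia (0.0253 to 0.0863). H2-Aa, the class II alpha chain, ranged from 0 to 19.4 CPM in the pools, and Cd74, the invariant chain, from 53.0 to 259. Of 375 cells thinned to 50000 counts, 125 held a count of H2-Aa, H2-Ab1 or H2-Eb1 (33.3%, exact 95% interval 28.6 to 38.4), against 31.2% of 205 microglia (24.9 to 38.0). Without thinning the shares were 56.0% and 56.7%. Only 11 of the thinned macrophages (2.93%, 1.47 to 5.19) reached 100 CPM over those 3 genes, and 6 of them were in the KO pool of plate 060s. Among thinned microglia 10 of 205 did (4.88%, 2.36 to 8.79). MHC class I was present, with H2-D1 between 2183 and 5109 CPM.

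Of 15 cytokine and NF-kB genes 7 reached 20 CPM, and the list held 0.140% of counts against 0.148% in microglia. Cd14, a co-receptor for bacterial lipid, was at 261 to 627 CPM. Il1b stayed under 2 CPM in every macrophage pool and Tnf at or under 16.6 CPM, and Mki67, the proliferation marker, at or under 3.43 CPM. Of 15 cell cycle genes 4 reached 20 CPM, among them Cdk1, a kinase of cell division, at 12.4 to 57.1 CPM. Cdk1 was found in 23.5% of thinned macrophages and 22.0% of microglia (27.0% of macrophages unthinned), while 1 of 375 cells held at least 4 of 9 mitotic genes (0.267%, 0.00675 to 1.48). Of the chemokines, Pf4 (793 to 1301 CPM), Ccl24 (113 to 340 CPM) and Ccl9 (median 244 CPM) led. The transcription factors Spi1, the master factor of myeloid cells (267 to 733 CPM), Maf (201 to 550 CPM) and Mef2c (182 to 649 CPM) were present, as were Notch1 (77.9 to 241 CPM), Notch2 (76.0 to 338 CPM) and Rbpj, the nuclear partner of Notch (90.7 to 182 CPM).

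Beside microglia, few genes were higher by a clear margin and many were lower. A gene was counted when the ratio of CPM + 1 was at least 2-fold in the same direction in all 8 pairs of pools, among 6659 genes at 20 CPM in either type. Only 4 were higher in macrophages (0.0601%): Stom, a membrane scaffold protein, F13a1, Pltp, a phospholipid transfer protein, and Gas7. In contrast 142 were lower (2.13%). The median log2 ratio over the 6659 genes was 0.01. Leaving out 1 plate at a time gave 4 to 16 higher and 148 to 178 lower, with 16 higher without plate 524s, 11 without 056s, 10 without 529s and 7 without 059s.

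Stom lay between 355 and 619 CPM in macrophages and between 90.8 and 236 CPM in microglia, a median 2.85-fold difference (2.29 to 5.47) with no overlap of pools. F13a1 was 2.56-fold higher (2.20 to 4.65), and Pltp 2.68-fold (2.09 to 5.74), at 480 to 1031 CPM. The next genes missed the limit in 1 pool or more: Dab2 at 2.59-fold (1.99 to 4.32), Lgals1, the galectin, at 3.08-fold (1.98 to 7.43) and Fgfr1 at 4.28-fold (1.77 to 7.96). All 8 markers were higher in the median, from 1.13 log2 units for Stab1 to 1.74 for Lyve1. The marker list's median log2 ratio was 1.35, against 0.01 for all genes.

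The genes that were lower included all 10 microglia markers. They were lower in all 8 pools, by a median of 4.96 log2 units as a list. Sall1, the microglia transcription factor, lay between 0.3 and 32.6 CPM in macrophages and between 236 and 681 in microglia. Olfml3 was 55.8-fold lower (26.2 to 123) and Sparc, a matrix protein, 62.7-fold (19.7 to 99.1). P2ry12 was at 258 to 443 CPM, against 2535 to 7092 in microglia. Others were Tgfbr1, the TGF-beta receptor (8.90 to 112 CPM), Il1a (0.16 to 1.22 CPM), Cd9 (0.40 to 25.6 CPM) and the adhesion receptor Adgrg1, 77.7-fold lower (20.8 to 380). Of 11 cathepsin-list genes, 2 were lower in all 8 pools: cathepsin S (Ctss), at 1809 against 5148 CPM, and Cst3, a cathepsin inhibitor, at 1845 against 7587 CPM.

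The gene lists lay between these ends, and most of their members passed in neither direction. With 0.0601% of all genes counted as higher, a count of 0 in a list says nothing about it, and the medians are given as a description. The 15 scavenger and endocytic receptors had a median log2 ratio of 1.15, with 0 counted. Setting shared genes aside leaves 13 of that list's 18 genes and 3 of the 8 markers, so its ratio is in part that of the markers. The sialic acid receptor Siglec1 lay between 119 and 1015 CPM in macrophages and between 105 and 389 in microglia, so its pools overlapped. Of 10 complement genes 0 were counted, with a median of 0.26. Properdin (Cfp), which stabilises the alternative pathway, was at 590 to 1329 CPM against 242 to 461 in microglia, without overlap. Of 13 iron and heme genes 0 were counted (median 0.87), and of 15 interferon-stimulated genes 0 (median 1.14). Beside 2.13% of all genes, lower were 2 of 11 integrins (Itgb3 and Itgb5) and 3 of 7 purinergic genes (P2ry12, P2ry13 and Adora3). Cx3cr1, the fractalkine receptor, was still at 1261 to 2840 CPM in macrophages, against 5550 to 8827 in microglia.

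Cell-to-cell variation was measured in cells thinned to 50000 counts (375 of 400). The coefficient of variation (CV) of each gene within a pool was set against 100 genes of like level, and the difference in log2 units is called excess variation. Genes at a level of 50 CPM were used, 3237 in all, with a median CV of 1.68. Among cells of the same kind, sampling of few copies alone makes low genes vary, and the comparison with like genes is meant to set this aside.

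Spp1, the secreted protein osteopontin, varied most, with an excess of 1.65 and a median CV of 5.65. It was found in 12.8% of thinned cells (9.59 to 16.6), against 11.2% of microglia, and in 21.0% of all 400 cells without thinning. WT on 530s held 33 of its 48 cells, 24.8% of that pool against 0 to 10.6% of each other pool, and without it the share was 15 of 242 cells (6.20%), a value added after the pools had been seen. Its highest cell, in the WT pool of plate 530s, held 28.7% of all its counts. The excess was 0.65 when the top cell of each pool was left out. Mmp9, a matrix-degrading protease, was next at 1.40, found in 43.2% of cells (28.8% of microglia, 60.8% of macrophages unthinned). Here the top cell held 5.35% of the counts, and 59 cells reached 1000 CPM. Axl, a receptor for Gas6 on macrophages that clear dead cells, had an excess of 1.31 and was found in 14.9% of cells (22.9% of microglia, 21.2% unthinned).

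Further genes of high excess were Vcam1 (1.05), Lyve1 (1.00), Ccl8 (0.95), Hgsnat (0.92), Fcna (0.90), Cx3cr1 (0.89), Cd209f (0.82), Mbp (0.79), Mir6236 (0.73), C4b (0.72) and Oasl2 (0.66). Lyve1 thus varied in excess although its level was high. Its cells ran from a lower quartile of 420 CPM to an upper quartile of 3260 CPM, with a highest cell of 14460. The other markers did not share this: Mrc1 (-0.43), Ms4a7 (-0.35), Dab2 (-0.22) and Stab1 (-0.19) varied less than genes of like level, F13a1 (-0.01) and Cbr2 (0.05) about as much, and Cd163 more (0.62). Fcna, a ficolin that recognises sugars, and Cd209f, a C-type lectin, split the cells. Over the thinned cells of all pools, Cd209f had a median of 20 CPM and an upper quartile of 870 CPM. The share of cells with a count also differed between pools. It ran from 23.1% (WT on 529s) to 65.5% (KO on 060s) for Cd209f. For Fcna it ran from 55.3% (WT on 059s) to 96.2% (WT on 529s). Mbp was found in 72.0% of macrophages and in 74.6% of microglia, and in 85.0% of macrophages unthinned. Its level was highest in the Het pool of plate 524s, at 1321 CPM against 183 to 542 in the others.

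**Figure D4:**
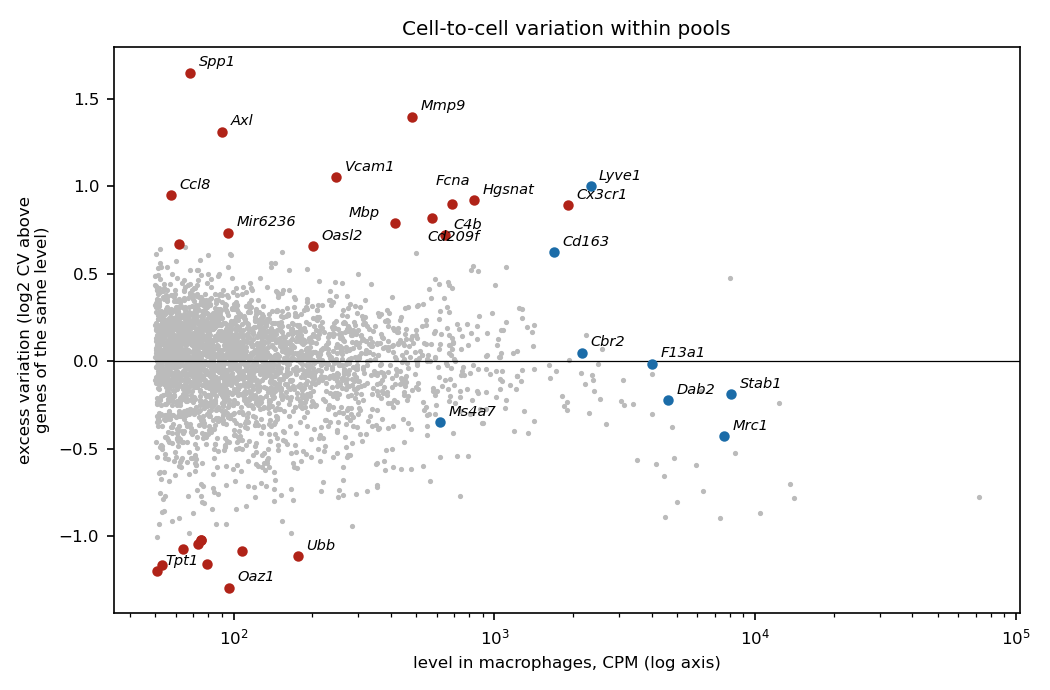
Excess variation, in log2 units of CV above genes of like level, against the macrophage level in CPM on a log axis, with each gene a grey point. Blue points mark the 8 markers, Lyve1 among them, and red points the other genes of the 15 most and 10 least variable, not all of them named. Lyve1 (1.00) lies far above Mrc1 (-0.43).

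At the other end stood genes of basic cell work. Oaz1, which restrains polyamine synthesis, had an excess of -1.30, Tpt1 -1.20, Ubb, a ubiquitin gene, -1.12, and 3 subunits of the proton pump of lysosomes, Atp6v0c, Atp6v1g1 and Atp6v1f, lay between -1.09 and -1.02. Ubb had a quartile range of 100 to 260 CPM across cells.

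Genes that varied together within pools were found by Spearman's rank correlation (rho) over the thinned cells of a pool, given as the mean or median of the 8 pools. Depth was equal by thinning, but cells of a pool share plate and library run, and in sparse counts only the largest values are described. Cd209f and Cd209g, lectin genes of 1 family, had a mean rho of 0.62 (0.41 to 0.79). Hgsnat, a lysosomal enzyme of heparan sulfate breakdown, and Pomk had 0.55 (0.44 to 0.68). The next partner of Hgsnat, Use1, was at 0.25, and whether Hgsnat and Pomk share reads was not tested. Oasl2 and Irf7, both induced by interferon, had 0.47, and 0.36 without thinning. Lyve1 correlated with Trf, the iron carrier transferrin, at 0.39, Folr2, a folate receptor of tissue macrophages, at 0.37 (0.18 to 0.61), and Fcna at 0.37 (0.20 to 0.59). Fcna in turn had 0.38 with Timd4, a receptor for phosphatidylserine.

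Of 496 pairs of gene lists, cathepsins with legumain and the other lysosomal genes had the largest median rho, 0.60 (0.18 to 0.71, positive in 8 of 8 pools), where the middle 90% of pairs lay between -0.17 and 0.20. The lowest values were -0.30 for purinergic and actin genes (negative in 7 of 8 pools), -0.30 for the CSF1R and actin lists (8 of 8), -0.29 for coagulation and Ms4a genes (8 of 8) and -0.25 for cathepsins and lineage transcription factors (7 of 8). Next came perivascular markers and MHC class I genes, at -0.24 (-0.38 to -0.10, 8 of 8). Within a list, the interferon-stimulated genes had the highest median rho, 0.23 (0.13 to 0.40) over 8 genes at 50 CPM.

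The promoters of the lysosomal and the interferon genes were looked at for the sites by which such genes are known to be controlled as groups, chosen after the correlations had been seen. Of 5 motifs searched on both strands in 300-base windows from 250 bases before to 50 after the start, CACGTGAC, a core of the element bound by TFEB, was in 2.25% of all 32851 promoters, or 2.55% of genes. It was in 5 of the 25 cathepsin and lysosomal genes with a window: Ctsa, Ctsd, Glb1, Lamp1 and Lgmn. GAAANNGAA, a core of the interferon-stimulated response element, was in 8.56% of all promoters, or 9.76% of genes, and in 9 of 13 interferon genes with a window. The other 3 motifs were GAGGAAG and its longer form GAGGAAGT, bound by PU.1 (13.6% and 3.20% of all), and TGCTGAC, a core of the MAF site (4.67%); of 7 markers with a window, Mrc1, F13a1 and Cbr2 held the first, F13a1 the second and Cbr2 the third. These counts describe letters in a window and were not tested.

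Stretches of 60 bases upstream of the start are shown for the 5 lysosomal genes and 4 interferon genes with a match, so that the sites can be seen in place, 5′ to 3′ on the gene's strand, from RefSeq on build GRCm38.p6, with the matches in capitals. A match on the other strand shows the complement of the motif, read backwards.
Ctsa, chr2:164833713-164833772, plus strand: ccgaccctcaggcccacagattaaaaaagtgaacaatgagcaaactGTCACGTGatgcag
Ctsd, chr7:142388018-142388077, minus strand: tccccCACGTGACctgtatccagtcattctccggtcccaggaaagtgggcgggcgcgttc
Glb1, chr9:114401002-114401061, plus strand: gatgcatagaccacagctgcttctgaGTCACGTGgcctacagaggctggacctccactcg
Lamp1, chr8:13159101-13159160, plus strand: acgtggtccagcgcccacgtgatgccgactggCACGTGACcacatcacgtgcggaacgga
Lgmn, chr12:102439110-102439169, minus strand: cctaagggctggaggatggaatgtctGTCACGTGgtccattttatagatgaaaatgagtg
Oas1a, chr5:120907526-120907585, minus strand: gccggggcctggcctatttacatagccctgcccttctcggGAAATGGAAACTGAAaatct
Bst2, chr8:71537569-71537628, minus strand: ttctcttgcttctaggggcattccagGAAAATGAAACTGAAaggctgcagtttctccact
Ifit3, chr19:34583348-34583407, plus strand: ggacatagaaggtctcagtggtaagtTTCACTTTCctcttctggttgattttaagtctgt
Ifit1, chr19:34640754-34640813, plus strand: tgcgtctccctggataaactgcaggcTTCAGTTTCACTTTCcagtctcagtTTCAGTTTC

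The first cathepsin or lysosomal site of each gene began between -14 and -245 from the start. Ctsa and Ctsd each held another match outside the stretch shown, and Ifit3, with 3 matches in its window, also held matches outside it. In Oas1a, Bst2 and Ifit1 capitals run on where 2 matches overlap.

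Some genes differed between pools far more than the markers did. Vcam1, an adhesion molecule, was at 365 to 1852 CPM in the 4 pools of plates 524s and 529s and at 27.4 to 131 CPM in the 4 pools of the other plates, with no overlap and all genotypes on the high side. In microglia of the same pools Vcam1 reached 1315 CPM in WT on 529s and 162, 209 and 144 CPM in the others of those plates, against at most 137 CPM elsewhere. The 2 plates were picked after the values had been seen. Ccl8, a monocyte-attracting chemokine, was at 605.6 CPM in KO on 524s, 421 in WT on 529s and 312 in Het on 529s, and at or under 69.6 in the other 5.

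Interferon-stimulated genes were highest in Het on 529s and KO on 060s, followed by WT on 529s. The list of 18 genes took 0.392% of counts in Het on 529s and 0.378% in KO on 060s, 0.263% in WT on 529s and 0.105% to 0.148% in the other 5. By cells the order was another: at least 8 of the 18 genes were found in 57.7% of thinned cells in WT on 529s (36.9 to 76.6), 44.0% in KO on 060s (33.2 to 55.3) and 35.3% in Het on 529s (14.2 to 61.7), intervals that overlap. Over all pools the share was 26.7% of macrophages and 24.4% of microglia. Mx1, an antiviral GTPase, was at 264 CPM in KO on 060s and 137 in Het on 529s, and at 0 to 40.8 in the other 6. Ifit3 was at 213 and 178 CPM in those 2 pools, against at most 60.2 elsewhere. Microglia of the same pools held 0.0902% and 0.0903%, inside the range of the other microglia pools (0.0608 to 0.131).

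WT on plate 529s stood apart in several genes at once. Besides Lyve1 and Cd163 it had more Fcna, 3389 CPM against 454 to 1310, and more immediate early genes, 0.509% of counts against 0.0631 to 0.216. Dusp1, an early-response phosphatase, was at 1558 CPM there and at most 245 elsewhere. It had less Mmp9, 97.2 against 450 to 621 CPM, and less Fcrls, an Fc receptor-like molecule, 1115 against 4565 to 5816 CPM. Microglia of that pool stood apart in the same direction, at 0.484% immediate early genes (0.0860 to 0.145 elsewhere) and 1694 CPM Fcrls (4543 to 6558 elsewhere). Het macrophages on the same plate lay with the other pools, at 1889 CPM for Lyve1, 4844 for Fcrls and 0.115% for immediate early genes. By the sex-linked genes the Het pool of that plate was female and the WT pool male.

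**Figure D5:**
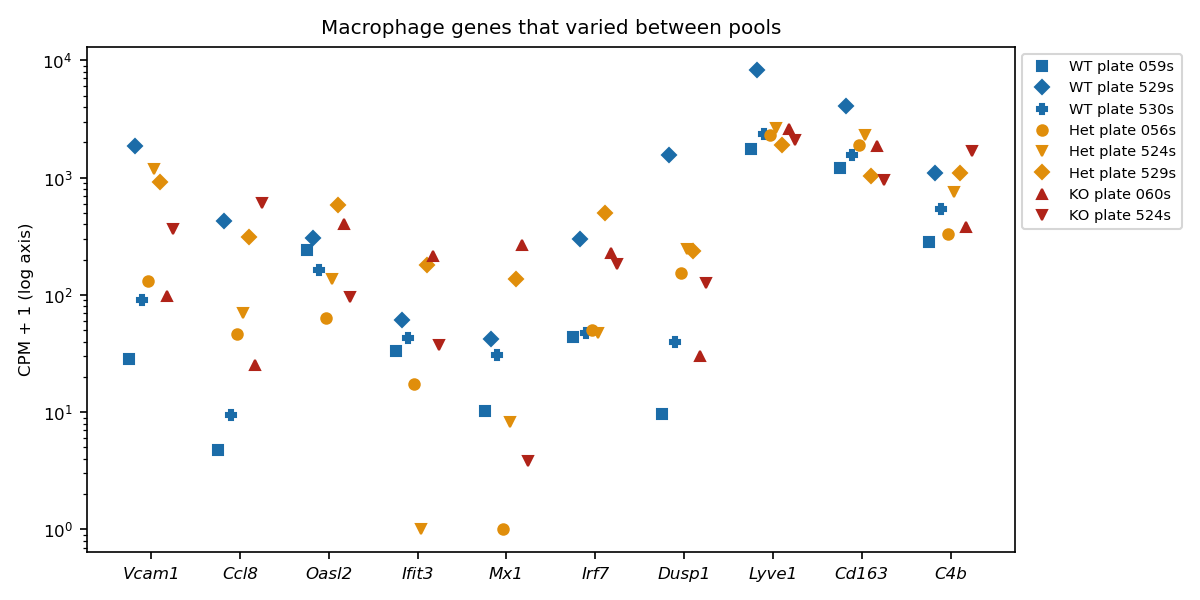
CPM + 1 on a log axis of 10 genes in the 8 macrophage pools, coloured by genotype and shaped by plate. Vcam1 is high on plates 524s and 529s, Mx1 in KO on 060s and Het on 529s, and Lyve1, Cd163 and Dusp1 in WT on 529s.

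Notch3, the gene the study deleted, cannot check the genotypes in these cells: it was at 4.0 CPM in WT on 059s, 0.2 in KO on 060s and 0 in the other 6 pools. KO pools were compared with control pools only by whether both KO pools lay outside the range of all 6 others, for 5947 genes at 20 CPM. Both lay above for 160 genes (2.69%) and below for 182 (3.06%). As a measure of plates, the 3 pools of plates 056s, 059s and 060s lay above the other 5 for 230 genes (3.87%) and below for 66 (1.11%), although each of those plates held another genotype. The KO and plate shares are not on 1 scale: 2 pools lie outside 6 others by order alone more often than 3 lie outside 5. No share expected by order alone was computed, so neither is read as a difference. Genotype, plate, sex and animal cannot be told apart. With fewer pools to lie outside of, the counts grew: without plate 060s there were 729 above and 1078 below for KO, and without 524s 790 and 681, each with 1 KO pool left. Without 529s they were 317 and 474, and without 056s 242 above. For plates they were 618 and 201 without 060s, 510 and 211 without 524s, 508 and 205 without 529s, 381 and 165 without 059s, 359 and 120 without 056s, and 360 above without 530s. The 230 and 66 of the plate comparison became 104 and 132 with DESeq2 size factors, so its direction depends on the scaling.

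Among genes above were Slc39a8, a zinc and iron importer, at 67.6 and 53.4 CPM in KO and 2.98 to 29.3 in controls, Ttc13 and Tmem184b. Among genes below were Crk, a signalling adaptor, at 24.9 and 38.0 CPM against 82.6 to 133, Slmap at 7.01 and 6.95 against 15.6 to 79.5, Acsl3, which activates fatty acids, and Cebpd, a transcription factor of inflammation, at 28.0 and 24.1 CPM against 52.1 to 199. In microglia Slc39a8 also lay above, by 0.36 log2 units between the nearest pools, while Crk, Slmap, Acsl3 and Cebpd overlapped between KO and controls.

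Of 29 cathepsin and lysosomal genes at 20 CPM, 7 had both KO pools above all controls, beside 2.69% of all genes, and 0 lay below: Ctsb, Ctsf, Lgmn, Lamp1, Lamp2, Grn and Hexa. These 2 lists had the most such members of all lists (3 and 4), and their sums rose together across cells. The 7 are thus not separate observations. The lysosome list took 3.00% and 3.12% of counts in KO, and 2.40% to 2.89% in the 6 control pools, which do not overlap. Growth factors (0.440% and 0.424% against 0.261% to 0.384%) and the CSF1R list (1.99% and 2.00% against 1.45% to 1.96%) also lay above. Lineage transcription factors lay below (0.257% and 0.242% against 0.273% to 0.391%). Of 2 growth factors at 20 CPM only Gas6 lay above, and of 10 genes of the CSF1R list 0 did. Of 13 lineage factors at 20 CPM, 1 lay below. The sums without overlap, that of the lysosome list included, were found among 30 lists of gene classes. No number expected by order alone was computed, so these sums are not read as differences. The cathepsin list did overlap, with 4.07% and 4.52% in KO and 3.28% to 4.09% in controls. On plate 524s, which held both, the lysosome list took 2.65% in Het and 3.12% in KO. By the sex-linked genes that Het pool was male and that KO pool female, so genotype and sex cannot be told apart there. In microglia the KO pools of the lysosome list, at 3.85% and 4.04%, lay inside the controls (3.35 to 4.47). The count is 6 with TMM scaling but 3 with DESeq2 size factors and 1 with Rn18s kept in the total, so it depends on the scaling. It is 12 without plate 060s and 11 without 524s.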

How the data were processed

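The table the authors deposited holds raw read counts (unit read from its whole-number values), with cells in columns and 53545 genes, Rn18s and 92 ERCC spike-ins as features. The submitters' processing notes name STAR; the version, genome build, annotation, counting program and cell filters are not given in the sources used here. Columns were matched to labels by name. The macrophages, gene lists and rules were chosen with earlier results of these data known.

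From the counts, pools were summed and scaled to CPM with ERCC and Rn18s left out. Exon lengths came from GENCODE M21 (GRCm38), which matched 50067 symbols; levels between genes were compared per kb. The calls against microglia used CPM + 1. For variation and correlation, cells of at least 50000 counts were thinned to that depth without replacement (375 macrophages, 205 microglia). Shares carry exact (Clopper-Pearson) 95% intervals, which cover counting error only, since reads can be PCR copies of 1 molecule. No p-value was computed.

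Named genes were those of highest level (30), most above (15) or below (10) microglia at 50 CPM, most (15) and least (10) variable, the 8 markers, leading members of each list and the 8 with the largest gaps for KO and for plates; predicted, ribosomal protein and mitochondrial genes were counted, not named. Some genes that met these rules are not reported here. Genes singled out between pools (Vcam1, Ccl8, Mx1, Ifit3, Dusp1) or for low levels or other members of lists (Il1b, Tnf, Mki67, Cdk1, Hbb-bs, Notch1, Notch2, Siglec1, Cfp) were chosen after their values were seen.

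The calls and the variation measure were tried on simulated cells without pool or plate differences and without mixing of cell types. That trial cannot show how they behave where such differences are present. Alternatives used TMM (edgeR 4.0.16), DESeq2 1.42.0 size factors in R 4.3.3, other totals, filters, folds, pseudocounts and depths, and left out each plate. Analyses used Python 3.11.15, numpy 2.4.6, pandas 2.3.3 and scipy 1.17.1.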

Additional observations from a re-analysis of the deposited data

Results flagged for a closer look

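A gap test for a single stray value (Dixon's, over 8 pools) was applied to 79 list shares and gene levels in macrophages, and by chance it marks about 1 in 20. The WT pool of plate 529s was marked 7 times. It was high in the Ms4a family, at 0.426% of counts against 0.230 to 0.304 in the others, in immediate early genes, at 0.509% (0.0631 to 0.216), in Lyve1, at 8265 CPM (1755 to 2655), in Cd163, at 4100 CPM (951 to 2320), and in Fcna, at 3389 CPM (454 to 1310). It was low in Fcrls, at 1115 CPM (4565 to 5816), and in Mmp9, at 97.2 CPM (450 to 621). Mbp was high in the Het pool of plate 524s, at 1321 CPM (183 to 542), and Mir6236 in the Het pool of plate 529s, at 642 CPM (10.4 to 214). Serinc3 was low in the WT pool of plate 059s, at 3068 CPM (4230 to 5131).

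The 14 cells of the type labelled 7, which enter no pool, held a median of 17210 CPM of the 8 macrophage markers (2722 to 46240) and 9831 CPM of the microglia markers (1502 to 41082), at a median depth of 25329 counts. Summed, they held H2-Aa at 301 CPM, Cd74 at 709 and Mrc1 at 5356, with 253849 counts in the deepest cell.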

How the results depend on the processing

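Keeping Rn18s in the total lowered all shares: the 30 leading genes to 11.7%, the markers to 1.71%, cathepsins to 1.98%, the lysosome to 1.43%, complement to 1.33% and lipid genes to 3.82%. Genes with KO pools above and below then numbered 57 and 69, the plate sets 954 and 1, and lysosomal genes above in KO 1. With DESeq2 size factors the plate sets gave 104 and 132, and the lysosomal genes 3. The 230 genes above in the plate comparison were 77.7% of both directions, against 68.3% with TMM, 44.1% with DESeq2 and 99.9% with Rn18s kept. CPM left a median log2 shift of 0.16 between the plate sets over all genes, and DESeq2 0.00.

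Genes 2-fold above microglia numbered 7 with the mean of cells' own CPM, 55 at 1.5-fold and 0 at 4-fold, and those below 79 at 4-fold. Leaving out a plate gave 4 to 16 above, 202 to 790 genes above in KO and 219 to 1078 below, 359 to 618 above by plates and 95 to 211 below, and 7 to 12 lysosomal genes. Without plates 060s or 524s only 1 KO pool is left. Added after seeing the data, leaving out WT on 529s gave 285 below in KO and 109 below by plates, and leaving out Het on 529s gave 295 and 119, with 7 above microglia. Thinning to 20000 counts kept 5 of the 10 least variable genes. Macrophages were set against microglia of the same plate and genotype throughout. Causes were not tested.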
